A study of Mus musculus with 8 samples.

Results

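Cd74 is 1 of the 100 genes of a single-molecule fluorescence in situ hybridization panel that was read in 8 sections of mouse brain carrying GL261 glioma, a transplantable mouse glioma line. Its molecules were taken by the target name in every section, 6690608 of 33912787 listed molecules in all. All mice had been implanted with GL261 cells, were treated 4 times into the brain and were sacrificed on day 21. The combination group received anti-PD1 together with CpG-STAT3ASO, the CpG-STAT3ASO group that agent alone, the anti-PD1 group the checkpoint antibody alone, and the PBS group the vehicle, with 2 sections each. The labels give no strain, age or sex and hold no brain without tumour, and they do not say that sections came from separate animals, so p-values measure only the spread between these sections.

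Cd74 encodes the invariant chain, the chaperone that holds MHC class II molecules until they reach the endosomes in which peptides are loaded. Its transcription is driven, together with that of the class II genes, by the transactivator CIITA, which interferon-gamma induces in many cell types. Dendritic cells, B cells and activated macrophages carry much of it, resting microglia carry little, and microglia in inflamed or tumour-bearing brain raise it. CpG oligonucleotides act through the endosomal receptor TLR9, and the antisense part of CpG-STAT3ASO is directed at Stat3. No sequence is shown, because the readout is a count of molecules at positions and the deposited files hold no probe sequences.

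Depth ran from 1669939 to 6995401 molecules, and the 28 codes named FP, read here as false-positive codes, took 0.106 to 0.306% of them. Tissue was divided into square bins of 360 pixels, and a section had 2155 to 2405 bins with at least 20 molecules. Bins are called dense with 100 or more molecules of the proliferation genes Mki67 and Birc5, low-proliferation with fewer than 10, and intermediate between these limits. Dense bins numbered 22 to 78 in the 4 sections that received CpG-STAT3ASO, alone or combined, and 714 to 1090 in the 4 without it. Stat3, the targeted transcript, made up 3.68 ± 0.565% of gene molecules with CpG-STAT3ASO and 6.04 ± 0.593% without it (SD, n = 4 each). Of the markers for cells that could carry Cd74, the macrophage gene Adgre1 and the dendritic cell gene Itgax exceeded the 90th percentile of the FP codes in all 8 sections.

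Cd74 was the gene with the most molecules in 5 of the 8 sections, and stood above the FP level in all 8. It numbered 53673 and 809154 molecules with the combination, 89537 and 301109 with CpG-STAT3ASO, 1650883 and 1064681 with anti-PD1, and 725051 and 1996520 with PBS (replicates 1 and 2). As a share of all gene molecules of the section this was 3.22 and 20.6% with the combination, 5.38 and 12.4% with CpG-STAT3ASO, 24.8 and 16.7% with anti-PD1, and 17.3 and 28.6% with PBS. Of the 4 sections given CpG-STAT3ASO, 3 were thus the lowest of all, while combination replicate 2 lay among the sections without the agent. How efficiently each gene's probes detect is not given, so a rank among genes compares listed molecules, not transcripts per cell.

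The mean share was 11.9 ± 12.3% with the combination, 8.89 ± 4.97% with CpG-STAT3ASO, 20.8 ± 5.73% with anti-PD1 and 22.9 ± 7.97% with PBS (SD, n = 2 each). The order of the means, lowest first, was thus CpG-STAT3ASO, combination, anti-PD1 and PBS. No neighbours in this order were separated by more than their spread. Per tissue bin the sections held 24.7 and 336 Cd74 molecules with the combination, 38.3 and 137 with CpG-STAT3ASO, 742 and 452 with anti-PD1, and 327 and 926 with PBS. By this density 3 of the sections given CpG-STAT3ASO were below all others, and combination replicate 2 overlapped with PBS replicate 1. In whole sections, fewer cells that carry Cd74 and less Cd74 per cell cannot be told apart.

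**Figure D1:**
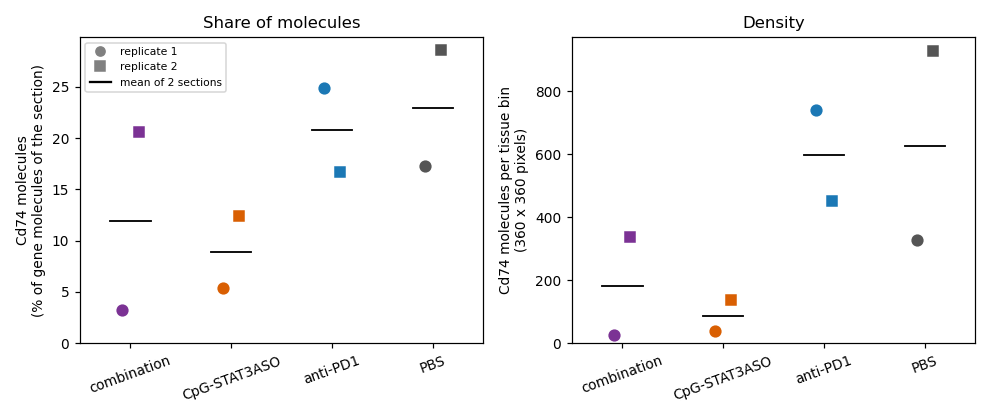
Cd74 in each section, as percent of the gene molecules of the section (left) and as molecules per tissue bin of 360 by 360 pixels (right), by treatment. Circles are replicate 1, squares replicate 2 and bars the mean of 2 sections. The combination sections lie far apart at 3.22 and 20.6%, and the PBS sections at 17.3 and 28.6%.

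The first question was whether the agents changed Cd74 over the section. With limma on log2(CPM + 1), where CPM is molecules per 1000000 gene molecules, CpG-STAT3ASO averaged over anti-PD1 gave a difference of -1.38 for Cd74 (SE 0.65, adjusted p = 0.101), and 43% of the 100 genes passed in this comparison. The median of all genes moved by 0.63 in the other direction, and Cd74 ranked 95 of 100 from the highest difference. Per tissue bin the difference was -2.80 (adjusted p = 0.0494) with a median of all genes of -0.77. With median-of-ratios scaling it was -2.07 (adjusted p = 0.0348) with a median of -0.04, and with voom -1.46 (adjusted p = 0.0381). Cd74 was therefore lower with CpG-STAT3ASO under these 4 scalings, and passed the threshold of 0.05 under the last 3 but not by its share. Over all 10 alternative settings the difference stayed negative, from -2.80 to -1.38, with limma adjusted p from 0.0348 to 0.150. Of these settings only the 3 named passed. Combination replicate 2 decided the call by share: without it the difference was -2.05 (adjusted p = 4.26e-05), and leaving out others in turn gave up to -0.71 without combination replicate 1 (adjusted p = 0.129).

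Single comparisons, which share sections, had wide errors. CpG-STAT3ASO against PBS gave -1.44 (SE 0.93, adjusted p = 0.268), where 25% of genes passed, and passed itself when combination replicate 1 (adjusted p = 0.0214) or combination replicate 2 (adjusted p = 0.0173) was left out of the shared spread. The combination against PBS gave -1.45 (adjusted p = 0.289, 18% of genes passing) and the combination against anti-PD1 -1.32 (adjusted p = 0.315, 28% passing and 23% of all genes as higher). Both rest on which combination section is used. The combination against PBS was -2.79 without replicate 2 (adjusted p = 0.000573) and -0.11 without replicate 1, and the combination against anti-PD1 was -2.66 without replicate 2 (adjusted p = 0.000583) and 0.02 without replicate 1. For anti-PD1 averaged over CpG-STAT3ASO, Cd74 stood at -0.06 (SE 0.65, adjusted p = 0.998). No gene passed limma's adjusted test there (0%), and 1 had an unadjusted p under 0.05. The interaction of the agents was 0.12 (SE 1.31, adjusted p = 0.955), again with 0% passing and 3 genes at an unadjusted p under 0.05.

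Most Cd74 lay in dense bins in the sections without CpG-STAT3ASO, and outside them in the sections given the agent. Dense bins held 3.20 and 6.15% of the Cd74 molecules with the combination and 3.20 and 6.66% with CpG-STAT3ASO, against 91.3 and 96.2% with anti-PD1 and 87.2 and 90.5% with PBS. Intermediate bins held 36.8 and 60.3% with the combination and 39.5 and 53.6% with CpG-STAT3ASO. In combination replicate 1 and CpG-STAT3ASO replicate 1 low-proliferation bins held the most, at 59.95 and 57.3%. These shares depend also on how many bins of a section were dense, given above, and do not compare levels.

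In low-proliferation bins Cd74 made up 2.50 and 17.3% of gene molecules with the combination, 4.76 and 8.27% with CpG-STAT3ASO, 6.65 and 1.86% with anti-PD1, and 4.22 and 13.7% with PBS. All treatments overlapped in this tissue, and the spread within the combination and the PBS pairs was wider than that between the treatment means. The difference with CpG-STAT3ASO was 0.31 there (SE 0.67, adjusted p = 0.808), with 9.18% of genes passing and a median of 0.41 over all genes. Its sign was not stable, at 1.01 without combination replicate 1, -0.39 without combination replicate 2 and -0.12 with median-of-ratios scaling. In intermediate bins it was -1.02 (SE 0.58, adjusted p = 0.268), with 4.21% of genes passing and a median of 0.30. Neither tissue class gave a difference beyond the spread between sections.

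**Figure D2:**
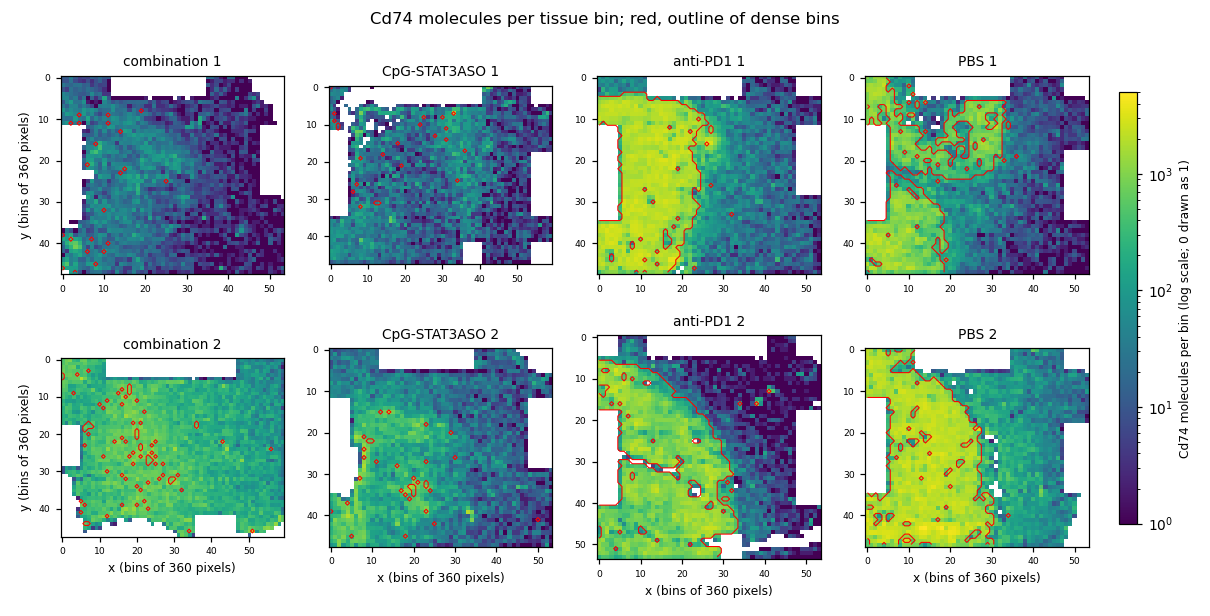
Cd74 molecules per tissue bin of 360 by 360 pixels on a log colour scale for the 8 sections, with bins at 0 drawn as 1 and the outline of dense bins in red; white is without tissue bins. Without CpG-STAT3ASO the colour follows the outlined dense area, while combination replicate 2 is bright over most of its surface, with a median of 281 molecules a bin.

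Within sections, Cd74 was enriched in dense bins. It made up 27.7 and 18.6% of the molecules of dense bins with anti-PD1 and 20.3 and 30.4% with PBS, against 6.65 and 1.86% and 4.22 and 13.7% in the low-proliferation bins of the same sections. The log2 difference of dense over low-proliferation bins was 2.06 and 3.32 with anti-PD1 and 2.27 and 1.15 with PBS, positive in 4 of 4 sections. Over these sections limma with the section as block gave 2.20 (SE 0.33, adjusted p = 0.00159), with 56.1% of all genes passing, 28.6% of all genes as higher in dense bins, and a median of 0.17. Per bin, where dense bins hold more of nearly every gene, the difference was 5.18.

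The few dense bins of sections given CpG-STAT3ASO held 5.93 and 24.8% Cd74 with the combination and 8.55 and 24.0% with CpG-STAT3ASO. Dense over low-proliferation bins differed there by 1.25 and 0.52 with the combination and by 0.84 and 1.54 with CpG-STAT3ASO, positive in 4 of 4. The coefficient for the change of this step with CpG-STAT3ASO was -1.16 (SE 0.47, adjusted p = 0.0995, 30.6% of genes passing and 6.12% with a negative coefficient), which did not pass. Per bin the coefficient was -3.01 (adjusted p = 0.00162), which did. The per-bin coefficient also holds any change in the molecules of all genes per bin, which the share takes out. It therefore does not single out Cd74. Leaving out PBS replicate 2, the section with the smallest step without the agent, brought the coefficient by share to -1.51 (adjusted p = 0.0341).

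The level did not stop at the edge of dense tissue. In the outermost dense bins Cd74 made up 27.5 and 20.6% with anti-PD1 and 20.5 and 31.05% with PBS, and in the first bin outside 28.1 and 20.9% and 20.1 and 31.8%. At 3 bins outside it was 18.6 and 2.38% with anti-PD1 and 9.03 and 22.5% with PBS, and at 10 bins outside 4.77 and 1.08% and 3.22 and 17.4%. Anti-PD1 replicate 2 fell most sharply, to 4.85% at 2 bins outside, and PBS replicate 2 most slowly.

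At 10 or more bins outside, Cd74 made up 3.20 and 0.938% with anti-PD1 and 1.67 and 9.40% with PBS, against 24.7 and 12.1% and 16.9 and 29.5% at 1 to 3 bins. The log2 difference of 1 to 3 over 10 or more bins outside was 2.94 and 3.69 with anti-PD1 and 3.34 and 1.65 with PBS. Fitted over these 4 sections it was 2.90 (SE 0.36, adjusted p = 0.000225), with 67.4% of genes passing, 51.6% as higher and 15.8% as lower near the edge, and a median of 0.99 over all genes. With median-of-ratios scaling, which takes out most of that shift, it was 1.998. With the agent the same difference was 2.59 and 0.98 for the combination and 1.08 and 2.61 for CpG-STAT3ASO, and the coefficient for the change with CpG-STAT3ASO was -1.09 (SE 0.58, adjusted p = 0.286, 6.32% of genes passing, 3.16% in each direction).

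**Figure D3:**
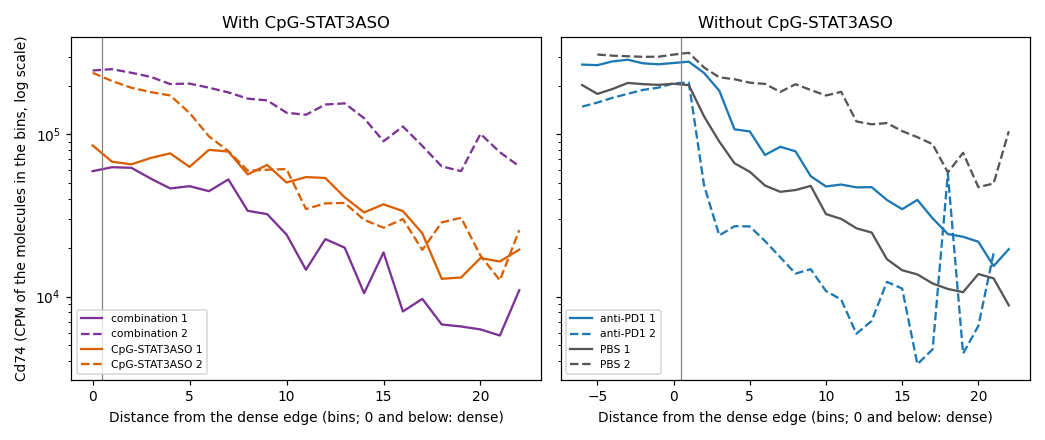
Cd74 in CPM of the molecules of the bins, on a log axis, against the distance from the edge of dense tissue in bins of 360 pixels, with 0 and negative numbers inside dense tissue; left with and right without CpG-STAT3ASO, 1 line a section, classes of under 5 bins left out. Without the agent the lines are level inside dense tissue and in the first bin outside and then fall, from 20.1 to 3.22% over 10 bins in PBS replicate 1.

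Whether Cd74 followed tumour or myeloid molecules was asked first over bins, by the partial Spearman correlation of molecules per bin given the molecules of all other genes in the bin, called the link below. Gpnmb, a transmembrane glycoprotein gene high in GL261 tissue here and also known from macrophages, had a link of 0.52 and 0.52 with the combination, 0.38 and 0.46 with CpG-STAT3ASO, 0.56 and 0.56 with anti-PD1, and 0.73 and 0.55 with PBS. Itgax, the CD11c integrin gene of dendritic cells and some macrophages, had 0.34 and 0.37 with the combination, 0.34 and 0.53 with CpG-STAT3ASO, 0.69 and 0.68 with anti-PD1, and 0.68 and 0.60 with PBS. Adgre1, a surface receptor gene of macrophages and microglia, had 0.66 and 0.67 with the combination, 0.49 and 0.71 with CpG-STAT3ASO, 0.35 and 0.17 with anti-PD1, and 0.18 and 0.07 with PBS. These correlations describe 2155 to 2405 bins of 1 section each, which share a slide area and their total of molecules, and carry no p.

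Over the 8 sections together, neither difference between myeloid and Gpnmb links passed the test. The link with Adgre1 minus that with Gpnmb averaged -0.13 (exact sign-flip p = 0.3125, two-sided) and the link with Itgax minus that with Gpnmb -0.01 (exact sign-flip p = 0.82). Over all tissue bins Adgre1 was ahead of Gpnmb by 0.14 and 0.14 with the combination and 0.11 and 0.25 with CpG-STAT3ASO, and behind it at -0.22 and -0.39 with anti-PD1 and -0.55 and -0.49 with PBS. This change with CpG-STAT3ASO, 0.57, had an exact permutation p of 0.0286, the smallest that 70 assignments of 8 sections allow. Within a tissue class it was much smaller, at 0.17 in low-proliferation bins (exact permutation p = 0.0286) and 0.066 in the other bins (exact permutation p = 0.6), 2 tests added after the data were seen. In low-proliferation bins Adgre1 minus Gpnmb was 0.21 and 0.25 with the combination, 0.15 and 0.31 with CpG-STAT3ASO, 0.11 and 0.087 with anti-PD1, and -0.048 and 0.097 with PBS. In the other bins it was -0.016 and 0.070 with the combination, -0.025 and -0.033 with CpG-STAT3ASO, 0.069 and 0.15 with anti-PD1, and -0.31 and -0.18 with PBS. Adgre1 thus led in 7 of 8 sections in low-proliferation bins (mean 0.15, exact sign-flip p = 0.0156), and the arms overlapped in the other bins.

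**Figure D4:**
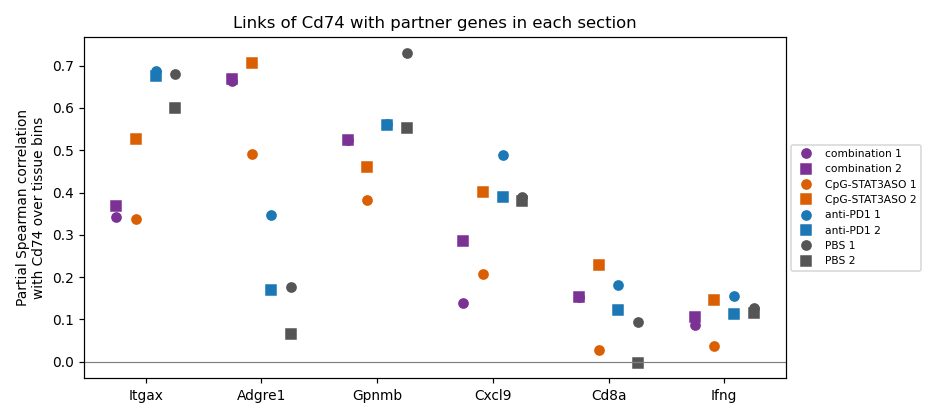
Partial Spearman correlation of Cd74 with 6 partner genes over the tissue bins of each section, given the molecules of all other genes; colours are treatments, circles replicate 1 and squares replicate 2. Adgre1 lies at 0.49 to 0.71 with CpG-STAT3ASO and at 0.07 to 0.35 without, while Cd8a and Ifng stay between -0.00 and 0.23.

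Taken gene by gene, the link was higher with CpG-STAT3ASO by 0.44 for Adgre1 and lower for Itgax, at -0.27, and Gpnmb, at -0.13. Each had an exact permutation p of 0.0286 and an adjusted p of 0.0571 over the 6 partner genes, so none passed the threshold after adjustment. By Pearson correlation of log2 shares all 3 passed (adjusted p = 0.0429), as they did without CpG-STAT3ASO replicate 2 (adjusted p = 0.0343). An exact permutation p of 0.0286 is the smallest possible in each case. The adjusted p could thus fall only as more of the 6 partner genes reached it, so these passes do not show a stronger difference for the 3 genes. The difference for Gpnmb turned to 0.13 in low-proliferation bins and 0.19 in the other bins, where it did not pass. For Itgax the difference shrank to -0.068 in low-proliferation bins. The link with Adgre1 in those bins was 0.52 to 0.69 with the agent and 0.31 to 0.35 without it. Adgre1 itself was more abundant with the agent, at 0.769 ± 0.0954% with the combination and 0.856 ± 0.38% with CpG-STAT3ASO, against 0.0619 ± 0.011% with anti-PD1 and 0.0857 ± 0.0323% with PBS (SD, n = 2 each). The part of that abundance in the links was not tested.

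The links were above 0 also when another of these genes was held fixed. The link with Gpnmb given Adgre1 and Itgax was 0.34 and 0.26 with the combination, 0.16 and 0.27 with CpG-STAT3ASO, 0.31 and 0.35 with anti-PD1, and 0.56 and 0.48 with PBS. The link with Itgax given Gpnmb was 0.30 and 0.37, 0.29 and 0.49, 0.57 and 0.57, and 0.48 and 0.55 in the same sections, and that with Adgre1 given Gpnmb was 0.57 and 0.54, 0.38 and 0.64, 0.31 and 0.20, and 0.17 and 0.19. In PBS replicate 2 and anti-PD1 replicate 2 the link with Adgre1 was higher given Gpnmb than without it. Within dense bins, which only the 4 sections without CpG-STAT3ASO hold in number, the link with Gpnmb was -0.00 and -0.07 with anti-PD1 and 0.11 and 0.23 with PBS, and that with Itgax 0.57 and 0.48 and 0.32 and 0.32. Itgax was thus ahead of Gpnmb in each of these sections inside dense tissue, by a count of 4 of 4 with no test.

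As a level, Cd74 was lower in bins rich in Adgre1 than in bins rich in Gpnmb. Bins in the top 25% for the share of Adgre1 but not of Gpnmb held 4.26 and 25.04% Cd74 with the combination, 5.71 and 15.1% with CpG-STAT3ASO, 17.1 and 10.4% with anti-PD1, and 11.5 and 18.05% with PBS. Bins in the top 25% for Gpnmb but not for Adgre1 held 5.05 and 24.3%, 9.02 and 19.7%, 26.6 and 16.3%, and 19.6 and 29.9%. The log2 ratio averaged -0.50 ± 0.28 (SD, n = 8), negative in 7 of 8 sections, with an exact sign-flip p of 0.0156. It no longer passed under 2 alternatives, among them bins of 180 pixels, at -0.11 (exact sign-flip p = 0.383). The test of its change with CpG-STAT3ASO gave 0.38 (exact permutation p = 0.0857). In sections without the agent, dense over low-proliferation bins differed by -1.63 for Adgre1 and 5.87 for Gpnmb on the log2 scale. How far the ratio restates that contrast of tissue classes was not tested. Bins in the top 25% for neither gene held 1.64 and 17.4% Cd74 with the combination and 3.99 and 6.62% with CpG-STAT3ASO. With anti-PD1 they held 24.0 and 18.3%, and with PBS 15.5 and 28.7%. Bins rich in Adgre1 but not Gpnmb were above these in each section given CpG-STAT3ASO and below them in each other section. Those rich in Gpnmb but not Adgre1 were above them in all sections but anti-PD1 replicate 2.

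Cd74 and Gpnmb were also compared over the edge of dense tissue, a comparison added after the data were seen. From dense bins to bins 1 to 3 outside, the share of Cd74 changed on the log2 scale by -0.16 and -0.62 with anti-PD1 and by -0.26 and -0.04 with PBS, while that of Gpnmb changed by -2.51 and -2.07 and by -1.47 and -1.35. Itgax changed by 0.03 and -0.47 and by -0.04 and 0.49, and Adgre1 by 1.24 and 1.63 and by 1.49 and 1.54. In each of these 4 sections Cd74 changed less over the edge than Gpnmb, which was lower outside, while Adgre1 was higher outside. With CpG-STAT3ASO, over few dense bins, Gpnmb stood between -0.00 and 0.29 and Cd74 between -0.32 and -0.02. The step of Cd74 minus that of Gpnmb averaged -0.35 ± 0.173 with CpG-STAT3ASO and 1.58 ± 0.52 without it (SD, n = 4 each), a difference of -1.92 (exact permutation p = 0.0286, the smallest possible). Over all 8 sections it averaged 0.61, positive in 4 of 8 (exact sign-flip p = 0.141).

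At shorter distances the surroundings of Cd74 molecules were compared with a ring 400 to 600 pixels away, as the log2 ratio of densities. No cells were outlined in the files, so molecules near each other may belong to the same cell or to neighbours. In the 20-pixel square that holds a Cd74 molecule, the ratio had a median over the 8 sections of 1.65 for Itgax (0.79 to 3.48), 1.42 for other Cd74 molecules (0.55 to 3.95), 1.26 for Adgre1 (0.74 to 1.97) and 0.68 for Gpnmb (0.16 to 1.64). Both myeloid genes stood above Gpnmb in 8 of 8 sections, Itgax by 1.198 ± 0.508 and Adgre1 by 0.56 ± 0.3 (SD, n = 8; exact sign-flip p = 0.00781 for each, the smallest that 8 sections allow). This distance was chosen after the data were seen.

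Within 100 pixels the differences were smaller. Itgax had a median ratio of 0.64, Cd74 of 0.59, Cxcl9 of 0.50, Adgre1 of 0.45, Gpnmb of 0.36, Ifng of 0.36 and Cd8a of 0.28, where all genes but Cd74 combined had 0.33. Adgre1 exceeded Gpnmb by 0.11 ± 0.118 (SD, n = 8), in 6 of 8 sections (exact sign-flip p = 0.0469), and at 200 pixels the mean was -0.01. Leaving out 1 section at a time took this exact sign-flip p up to 0.09375. Itgax exceeded Gpnmb by 0.45 ± 0.292 in 8 of 8 (exact sign-flip p = 0.00781), a comparison also added after the data were seen. At 100 pixels Adgre1 was behind Gpnmb in both CpG-STAT3ASO sections, at -0.061 and -0.012.

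**Figure D5:**
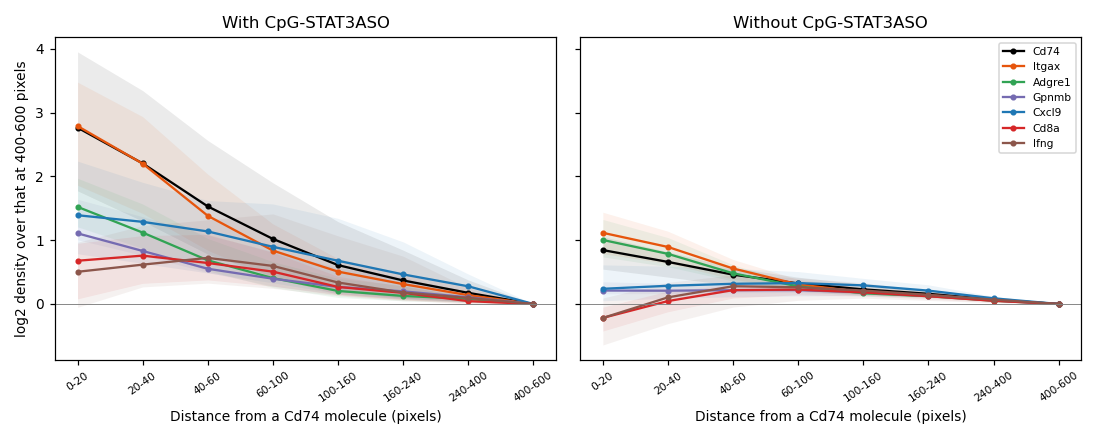
Density of 7 genes around Cd74 molecules as log2 over the density at 400 to 600 pixels, by distance in pixels between 20-pixel squares; left with and right without CpG-STAT3ASO. Lines are medians of 4 sections and bands their range. In the square of the Cd74 molecule itself, Itgax is at 2.79 with and 1.12 without the agent, Gpnmb at 1.11 and 0.21.

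Among the genes above the FP level in all sections that were most concentrated within 100 pixels of Cd74 were Ccr7, the homing receptor gene of mature dendritic cells and naive T cells (median 0.78), the cytokine gene Il1b (0.67), Itgax, the mannose receptor gene Mrc1 (0.63), the costimulatory ligand gene Cd86 (0.60), Tnfrsf9 (0.58), the IL-2 receptor gene Il2ra (0.55), Pdcd1lg2, which encodes a PD-1 ligand (0.54), and the cytokine receptor gene Csf2rb (0.54). These medians pool arms that differ: Ccr7 stood at 1.57 and 1.28 with the combination and 2.42 and 1.15 with CpG-STAT3ASO, against 0.21 and 0.30 with anti-PD1 and 0.41 and 0.28 with PBS. Without the agent Ccr7 was below Itgax in each of the 4 sections, which had 0.32 and 0.58 with anti-PD1 and 0.56 and 0.37 with PBS.

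The links with the interferon and T cell genes were weaker. Cxcl9, a chemokine gene induced by interferon-gamma, had a link of 0.14 and 0.29 with the combination, 0.21 and 0.40 with CpG-STAT3ASO, 0.49 and 0.39 with anti-PD1, and 0.39 and 0.38 with PBS. Ifng, the gene of interferon-gamma, stood between 0.04 and 0.16 over the 8 sections, and Cd8a, a marker of cytotoxic T cells, between -0.00 and 0.23. Ifng had only 96 to 1750 molecules a section and Cd8a 1148 to 18335, and correlations this weak are no finding.

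By the partial correlation none of these 3 links passed the test of a difference with CpG-STAT3ASO. The difference was -0.15 for Cxcl9 (exact permutation p = 0.114, adjusted p = 0.171), -0.03 for Ifng (exact permutation p = 0.229) and 0.04 for Cd8a (exact permutation p = 0.429). Cxcl9 and Ifng passed by plain Spearman correlation, at -0.39 and -0.18 (adjusted p = 0.0429), which does not take out the total of a bin, and without CpG-STAT3ASO replicate 2, at -0.20 and -0.051 (adjusted p = 0.0343). These adjusted p also depended on how many of the partner genes reached the smallest possible p. Cxcl9 passed also by Pearson correlation of log2 shares, at -0.20, but both were near 0 in low-proliferation bins, at 0.0047 for Cxcl9 and 0.017 for Ifng. Combination replicate 2, which had the most Cd8a of all sections at 18335 molecules, was also the section given CpG-STAT3ASO with the most Cd74. It was the deepest section given the agent as well, at 3922990 gene molecules against 1664837 to 2426531 in the others, so these numbers show no tie between the genes. In the 20-pixel square of a Cd74 molecule, Cd8a had a ratio of 0.08 to 0.95 with CpG-STAT3ASO and of -0.42 to -0.05 without it, and Ifng -0.05 to 0.97 and -0.64 to 0.09. These ratios were not tested.

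The genes linked most closely to Cd74 over bins were found by the median link over the 8 sections. Irf8, a transcription factor gene of dendritic cells and macrophages, led with 0.68 (0.40 to 0.74), followed by Tgfbi, a matrix protein gene of monocyte-derived macrophages (0.63), Tgfb1 (0.63) and the interferon-induced Cxcl10 (0.59). Ptprc, the pan-leukocyte CD45 gene (0.57), Csf2rb (0.57), Itgax (0.56), Gpnmb (0.54) and Mki67 (0.53) were also among the highest 10. Tgfbi had the narrowest range of the 10, at 0.53 to 0.67. The lowest were Crbn (-0.57), Sirpa (-0.49), Dnmt3a (-0.49) and Cd47 (-0.47). Within dense bins Tgfbi stayed at a median of 0.60 over 4 sections, where Irf8 was at 0.20 and Mki67 at 0.08. Within 100 pixels of Cd74 molecules, Irf8 had a median ratio of 0.34, near the 0.33 of all genes but Cd74. In the 20-pixel square its median was 1.46 with and 0.24 without CpG-STAT3ASO, where Gpnmb had 1.11 and 0.21.

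Of the antigen presentation list, 5 of 14 genes were on the panel, and none of its class II genes. With CpG-STAT3ASO averaged over anti-PD1, 3 of the 5 were higher (35% of all genes were), with a list median of 1.62 against 0.63 for all genes. As shares of molecules, the costimulatory ligand genes Cd80 and Cd86 rose by 2.12 (adjusted p = 0.00189) and 1.62 (adjusted p = 0.00284). Per tissue bin the arms were closer, with 0.922 ± 0.174 Cd80 molecules with CpG-STAT3ASO and 0.563 ± 0.126 without it, and 2.01 ± 0.52 and 1.74 ± 0.472 Cd86 molecules (SD, n = 4 each). Icosl, called at 1.72, never exceeded the FP level, and Cd40, the receptor gene through which helper T cells activate presenting cells, stood at 0.19 (adjusted p = 0.739). By share Cd74, at -1.38, was the only one of the 5 with a negative difference, but per bin Cd40 was lower too, at 1.14 ± 0.548 molecules with CpG-STAT3ASO and 2.47 ± 0.643 without it (SD, n = 4 each).

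In dense against low-proliferation bins, 4 of the 5 were tested. Cd74 was higher, Cd80 and Cd86 were lower at -1.25 (adjusted p = 0.009) and -1.43 (adjusted p = 0.00819), and Cd40 stood at 0.20 (adjusted p = 0.546). In bins 1 to 3 outside against 10 or more outside, Cd74 and Cd40 were higher, at 2.90 and 0.92 (adjusted p = 0.0304), while Cd80 and Cd86 had 0.36 and 0.40 and did not pass. Of these 4 genes, Cd74 was the only one called higher in both comparisons.

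Most of the interferon list was also higher in dense bins. In dense against low-proliferation bins, 5 of 8 measured genes were higher and 1 lower, where 28.6% of all genes were higher and 27.6% lower, with a list median of 1.12 against 0.17 for all genes. Cxcl10 was at 3.23 (adjusted p = 0.000486), Ifng at 2.85 (adjusted p = 0.00313), Cxcl9 at 2.25 (adjusted p = 0.0152), Irf8 at 1.24 and Cd274, the PD-L1 gene, at 1.01. Ifna2, which exceeded the FP level in only 4 of 8 sections, was lower at -2.10. In bins 1 to 3 outside against 10 or more, 6 of 7 tested genes were higher and Ifna2 lower (51.6 and 15.8% of all genes), with a median of 2.13 against 0.99. With CpG-STAT3ASO over whole sections 1 of 8 was higher (Ifna2, 1.38) and 1 lower (Cxcl10, -2.59), against 35 and 8% of all genes, with a median of -0.27 against 0.63.

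The dendritic cell and macrophage lists held genes of both directions, as the panel did. In dense against low-proliferation bins, Irf8 and Itgax (1.996) of 7 dendritic cell genes were higher and Flt3, a receptor gene of dendritic cell precursors, was lower (-4.54). Of 9 macrophage and monocyte genes 4 were higher (Msr1 2.55, Tgfbi 2.35, Arg1 1.91 and Cd14 1.07) and 3 lower (Csf1r -2.60, Adgre1 -1.63 and Cd68 -1.47). Set against 28.6% of all genes higher and 27.6% lower, these counts do not mark out either list. Their medians were -0.25 and 0.71, against 0.17 for all genes.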

How the data were processed

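Each deposited file lists the molecules that the authors called by Resolve single-molecule fluorescence in situ hybridization, with position and target name, so the unit is a count of molecules. How spots were called, and the size of a pixel, is not given in the sources used here. Seurat 4.2.0 is listed in the submitters' processing notes, with no role stated. Molecules were tallied in square bins of 360 pixels, with 20 or more molecules for tissue. Whole-section and zone values were log2(CPM + 1) over genes that averaged 10 or more molecules, fitted by limma 3.58.1 (R 4.3.3) with a trend, 4 group means or the section as block, and Benjamini-Hochberg adjustment over all genes tested. The whole-section fit was tried on simulated sections, where the most abundant genes, Cd74 among them, were given no change. That trial does not cover a change in such a gene, nor the fits within sections. Links, steps over the edge and surroundings came from Python 3.11.15 (numpy 2.4.6, scipy 1.17.1), compared between sections by exact two-sided permutation or sign flips. Surroundings used a raster of 20 pixels and added 0.5 to each number of pairs. All 99 other genes were ranked by link, and the text names genes from the 10 highest and 5 lowest among genes above the FP level in every section, and from the 10 most concentrated near Cd74; a few of these genes are not reported here. Cd74, its partners, the lists and the bin classes were chosen with earlier results of these data known. Alternatives were other scalings, bin sizes, class limits, correlations and radii, the replicate number as block, and leaving out each section.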

Additional observations from a re-analysis of the deposited data

Results flagged for a closer look

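The link of Cd74 with Adgre1 minus its link with Gpnmb differed between sections with and without CpG-STAT3ASO by 0.57 (exact permutation p = 0.0286), with all 4 sections given the agent above 0 and all 4 others below 0. The values were 0.14 and 0.14 with the combination and 0.11 and 0.25 with CpG-STAT3ASO, against -0.22 and -0.39 with anti-PD1 and -0.55 and -0.49 with PBS. Leaving out any section gave 0.52 to 0.64. Within low-proliferation bins the difference was 0.17 (exact permutation p = 0.0286), with 3 of the 4 sections without the agent above 0, and within the other bins 0.066 (exact permutation p = 0.6). Surroundings within 100 pixels went the other way, at -0.14 (exact permutation p = 0.114). The sections differ in their share of dense bins, and its part in the difference over all bins was not tested beyond these classes.

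The step of Cd74 over the edge of dense tissue minus that of Gpnmb differed by -1.92 on the log2 scale (exact permutation p = 0.0286). It was -0.27 and -0.21 with the combination and -0.31 and -0.60 with CpG-STAT3ASO, against 2.34 and 1.45 with anti-PD1 and 1.21 and 1.31 with PBS. Leaving out any section gave -2.05 to -1.67. The sections given CpG-STAT3ASO had 22 to 78 dense bins and the others 714 to 1090, and the part of this in the difference was not tested.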

How the results depend on the processing

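Over the settings other than leaving out a section, 162 values kept their direction and side of the threshold, 14 passed it newly, 3 no longer passed and 16 changed sign. The treatment difference with CpG-STAT3ASO was -2.80 per bin, -2.07 with median-of-ratios scaling and -1.46 with voom. Per bin, anti-PD1 gave 0.20 as an average and 0.073 against PBS, the combination against CpG-STAT3ASO 0.33 (0.052 against the molecules of all other genes), and the dense step's change -3.01. Median-of-ratios scaling gave -0.12 in low-proliferation bins. In low-proliferation bins the link with Adgre1 minus Gpnmb was 0.15 and with Itgax minus Gpnmb 0.094, the second also 0.0938 in bins with 10 or more Mki67 and Birc5 molecules and 0.038 with bins of 720 pixels. The split levels were -0.11 with bins of 180 pixels and -0.75 with a median split, and surroundings at 200 pixels gave -0.013.

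The change of links with CpG-STAT3ASO by plain Spearman correlation was -0.18 for Ifng, -0.39 for Cxcl9, -0.073 for Cd8a, -0.29 for Gpnmb and -0.37 for Itgax. By Pearson correlation of log2 shares it was -0.20 for Cxcl9, -0.0066 for Cd8a, -0.25 for Gpnmb, 0.44 for Adgre1 and -0.30 for Itgax. In low-proliferation bins it was 0.017 for Ifng, 0.0047 for Cxcl9 and 0.13 for Gpnmb, and in bins with 10 or more Mki67 and Birc5 molecules 0.19 for Gpnmb. In bins with 10 or more of them Adgre1 minus Gpnmb changed by 0.066 and Itgax minus Gpnmb by -0.37, and in low-proliferation bins Itgax minus Gpnmb by -0.20. The causes were not tested.

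Leaving out 1 section at a time gave -2.05 to -0.71 for CpG-STAT3ASO, -0.73 to 0.61 for anti-PD1, -1.22 to 1.46 for the interaction, -2.05 to -0.84 for CpG-STAT3ASO against PBS, -2.79 to -0.11 for the combination against PBS and -2.66 to 0.017 against anti-PD1. It gave -0.49 to 0.24 for anti-PD1 against PBS, -1.34 to 1.34 for the combination against CpG-STAT3ASO, -0.39 to 1.01 in low-proliferation bins and -1.51 to -0.79 for the dense step's change. Itgax minus Gpnmb links ran from -0.029 to 0.015, surroundings from 0.080 to 0.13 and their change from -0.20 to -0.10, and the split levels' change from 0.27 to 0.50. Changes of links ran from -0.051 to -0.015 for Ifng, -0.20 to -0.11 for Cxcl9, -0.14 to -0.085 for Gpnmb, 0.40 to 0.50 for Adgre1 and -0.31 to -0.25 for Itgax. With 1 section left in an arm, it was taken to vary like the other groups.

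Sections with the same replicate number did not deviate together in every pair (correlations of -0.525 to 0.589), so the number was not taken as a pairing. With the replicate number as block, CpG-STAT3ASO gave -1.38 (SE 0.72). With 2 sections a treatment, single comparisons have wide errors.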

Other observations

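Cd74 was spread more evenly over the tissue than the median gene, but less evenly than the molecules of all genes together. The tenth of the bins richest in Cd74 held 25.6 to 50.01% of its molecules, where the same share of the median gene was 51.6 to 70.1%. Bins without any Cd74 made up 9.24 and 0.0416% of the tissue with the combination, 3.08 and 1.18% with CpG-STAT3ASO, 1.26 and 8.10% with anti-PD1, and 3.56 and 0.0464% with PBS. A gene with many molecules leaves fewer bins empty, and the part of abundance in this was not tested.

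Cxcl10, singled out after its values were seen, ordered the sections much as Cd74 did. It numbered 5161 and 98774 molecules with the combination, 9395 and 37639 with CpG-STAT3ASO, 451434 and 185238 with anti-PD1, and 189365 and 708563 with PBS. By share of molecules combination replicate 1 was the lowest and PBS replicate 2 the highest section for both genes, and without combination replicate 2 the order of the other 7 was the same. Since the sections with and without CpG-STAT3ASO do not overlap in Cxcl10, no correlation over all 8 is given.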
